A study of Mus musculus with 4 samples.

Results

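Chemokines are small secreted proteins that bind G protein-coupled receptors on leukocytes and draw those cells into a tissue, and cytokines such as interleukin-1 and tumor necrosis factor are signals that set off inflammation. Chemokines are classed as CC, CXC or CX3C by the spacing of their first cysteines, and CXC chemokines that carry a glutamate-leucine-arginine (ELR) motif attract neutrophils in particular. In mammary tumors they are made by macrophages, fibroblasts, endothelium and the carcinoma cells themselves. A list of 36 genes was described here, 26 chemokines, 2 chemokine receptors and 8 cytokines, by every probe set whose annotated gene symbol is exactly one of them. Of the 36 genes, 35 had at least 1 such probe set and 53 probe sets were found in all, among 18193 genes that the array's probe sets name with a single symbol. The probe set that names Ccl19 also names other genes and was not used.

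The arrays, Mouse Genome 430 2.0 from Affymetrix, compared mammary tumors of St6gal1 null mice (St6gal1-/-) with those of wild-type littermates. St6gal1 encodes the enzyme that attaches sialic acid to N-glycans in an alpha2-6 linkage. All mice were C57BL/6 females that carried the polyoma virus middle T transgene (PyV-mT), which drives mammary carcinoma, and were 110 days old, 14 days after tumor onset. Each of the 4 arrays held RNA from 1 pool of 3 tumors of 3 animals, with 1 null and 1 wild-type pool in each of 2 sets. Whole tumors were used, so fewer cells of a type and less RNA per cell cannot be told apart in any value below. The Gapdh 3'/5' signal ratio, which rises as RNA is degraded, was 0.873 (null) and 0.869 (wild type) in set 1, and reached 2.13 (null) and 1.57 (wild type) in set 2. The tested probe set of St6gal1 read 2337 and 3642 in the null pools of sets 1 and 2, against 2330.1 and 2796 in the wild-type pools, so the genotypes rest on the labels. Which exons the null mice lack was not stated in the labels, and this probe set may lie outside them.

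Upstream sequences of 4 chemokines that were higher in the null pools are shown first, so that the most changed members and a pair of neighbouring genes can be read side by side. RefSeq windows of 300 bases (GRCm38.p6, 250 bases before to 50 after the start of the gene) were held for 27 of the 36 genes. Those of Ccl6, Cxcl15 and Cxcl13, the largest rises with a window, are given 5′ to 3′ on the strand of the gene, with that of Ccl9, the direct neighbour of Ccl6, which was chosen after its sequence was seen. Capitals mark matches to any of these motifs: the TATA box TATAAA on the strand of the gene, and on both strands STAT TTCNNNGAA, C/EBP TTGCNNAA, ETS AGGAAGT, and the NF-kappaB and interferon-stimulated response elements, given by name only.
Ccl6, chr11:83593038-83593337, minus strand: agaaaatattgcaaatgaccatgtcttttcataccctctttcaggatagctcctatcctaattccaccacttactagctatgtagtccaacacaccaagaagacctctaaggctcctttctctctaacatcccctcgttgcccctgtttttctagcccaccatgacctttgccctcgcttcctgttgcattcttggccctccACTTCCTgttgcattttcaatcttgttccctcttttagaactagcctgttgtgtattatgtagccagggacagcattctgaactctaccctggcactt
Ccl9, chr11:83578587-83578886, minus strand: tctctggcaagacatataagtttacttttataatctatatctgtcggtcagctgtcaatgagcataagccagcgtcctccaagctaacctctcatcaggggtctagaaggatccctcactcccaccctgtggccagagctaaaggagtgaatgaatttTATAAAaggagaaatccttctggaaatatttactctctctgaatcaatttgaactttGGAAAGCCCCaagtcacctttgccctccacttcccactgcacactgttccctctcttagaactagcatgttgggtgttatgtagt
Cxcl15, chr5:90794284-90794583, plus strand: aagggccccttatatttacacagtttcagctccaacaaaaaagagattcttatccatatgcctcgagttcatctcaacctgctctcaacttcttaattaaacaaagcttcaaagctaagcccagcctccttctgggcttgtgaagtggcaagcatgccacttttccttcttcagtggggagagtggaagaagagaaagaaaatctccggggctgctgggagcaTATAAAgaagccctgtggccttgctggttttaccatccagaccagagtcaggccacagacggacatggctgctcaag
Cxcl13, chr5:95956689-95956988, plus strand: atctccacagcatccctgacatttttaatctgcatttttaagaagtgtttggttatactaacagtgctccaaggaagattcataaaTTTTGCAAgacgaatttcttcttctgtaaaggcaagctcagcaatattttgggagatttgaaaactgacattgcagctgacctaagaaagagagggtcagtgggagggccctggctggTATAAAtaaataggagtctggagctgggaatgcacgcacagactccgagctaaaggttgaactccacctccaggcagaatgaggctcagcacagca

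Counted from the start of the gene, the TATA box began at position -27 in Cxcl15, -46 in Cxcl13 and -92 in Ccl9, and no TATAAA stood in the Ccl6 window. The Ccl6 window held an ETS match on the opposite strand at -48, the Ccl9 window an NF-kappaB match on the opposite strand at -35, and the Cxcl13 window a C/EBP match on the opposite strand at -164. The Ccl6 and Ccl9 windows shared an exact run of 13 bases, gccctccacttcc, which begins at -55 in Ccl6 and at -14 in Ccl9, and its end overlaps the ETS match of Ccl6. Around it, a local alignment of 74 columns was 79.7% identical. The run was found in 3 windows of the 32851 in the table, those of Ccl6, Ccl9 and Gm31822. Over all windows, TATAAA was present in 8.32%, the NF-kappaB letters in 4.79%, STAT in 8.30%, the interferon-stimulated element in 3.44%, C/EBP in 10.8% and ETS in 9.35%. Of the 27 windows of the list, 12 held TATAAA, 8 NF-kappaB, 2 STAT, 3 the interferon-stimulated element, 3 C/EBP and 5 ETS. Of the 6 genes that rose and have a window, 4 held TATAAA, and each of the other motifs was in 1 of them. The 2 genes that fell, Cx3cl1 and Cxcr4, both held TATAAA and none of the other motifs. A match describes letters only, and the binding of a factor was not measured.

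Signals were MAS5 intensities, and 565, the highest reading of the 13 Y-linked probe sets, which have no target RNA in female tissue, was taken as the level that unspecific signal can reach. Of the 53 probe sets, 31 read above 565 on all 4 arrays, 8 on 1 to 3 arrays and 14 on no array. By gene, 21 had a probe set above it on all arrays: Ccl4, Ccl5, Ccl6, Ccl8, Ccl9, Ccl28, Cxcl1, Cxcl9, Cxcl10, Cxcl12, Cxcl13, Cxcl14, Cxcl15, Cxcl16, Cx3cl1, Ccr1, Cxcr4, Il1b, Il15, Il18 and Il33. A further 6, Ccl2, Ccl7, Ccl11, Ccl17, Ccl25 and Tnf, were above it on some arrays, Ccl11 on both null arrays and on neither wild-type array. The remaining 8, Ccl3, Ccl20, Ccl22, Cxcl2, Cxcl5, Il1a, Il6 and Tslp, were not told from the unspecific level on any array, with readings up to 507. Signals rank probe sets and not amounts of RNA, because each probe set binds with its own strength.

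**Figure D1:**
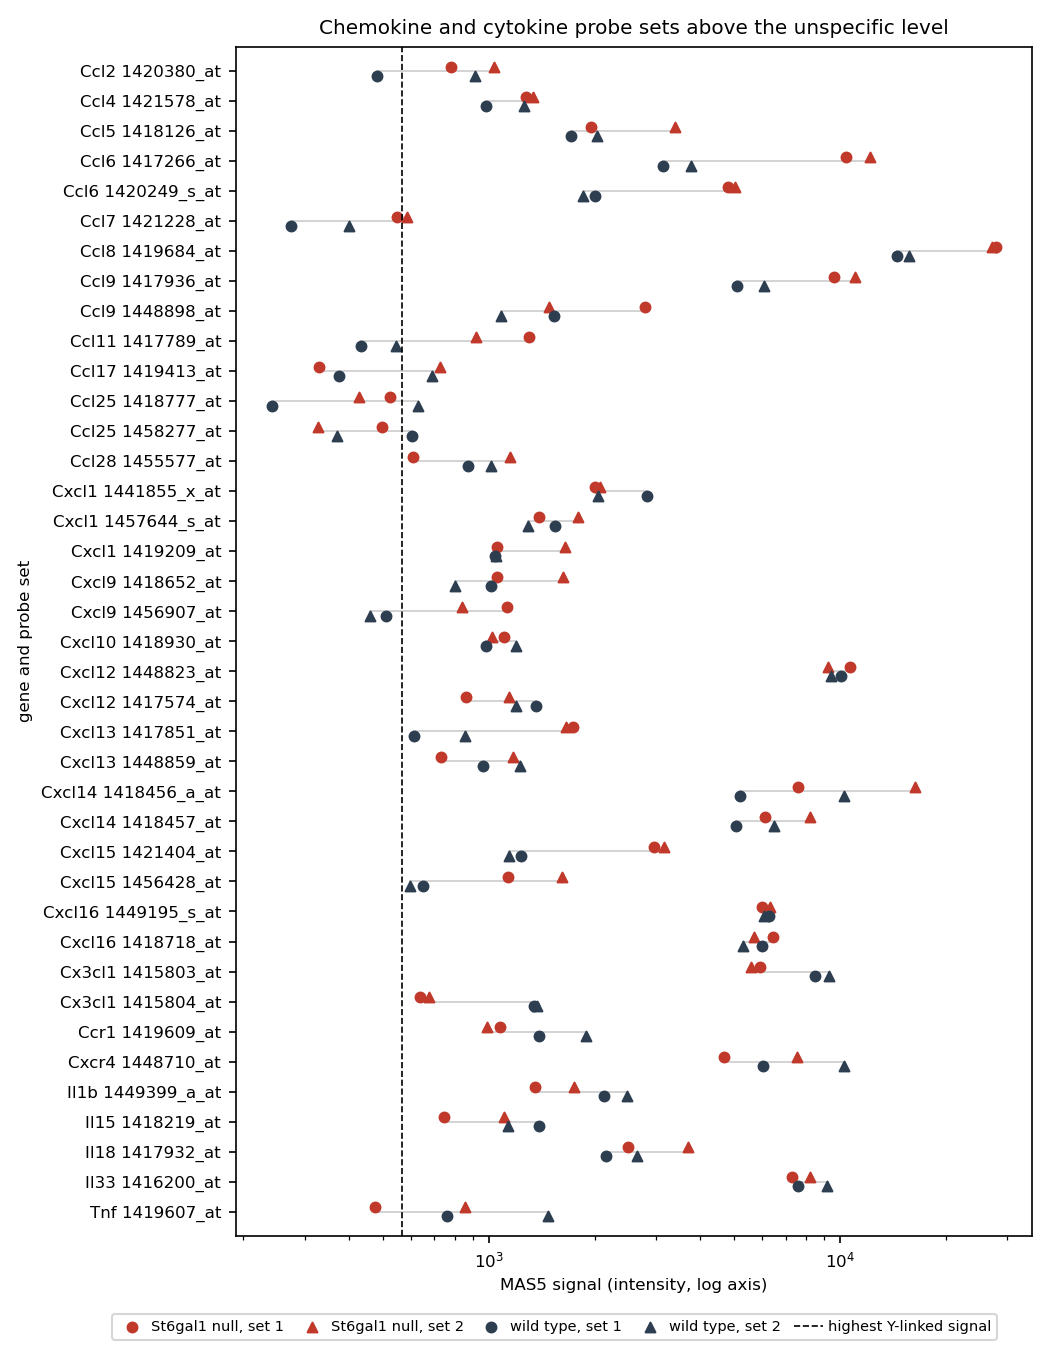
MAS5 signal (log axis) of the 39 probe sets of the list that read above the highest Y-linked signal on at least 1 array. Each row is 1 probe set with the 2 null pools (red) and the 2 wild-type pools (dark), and the dashed line is the unspecific level of 565. Both null points lie to the right of both wild-type points for Ccl6, Ccl8, Cxcl15 and Ccl11, and to the left for Cx3cl1.

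Within the list, 7 chemokine genes rose in the null pools, Ccl6, Ccl8, Ccl9, Ccl11, Cxcl13, Cxcl14 and Cxcl15, and 2 genes fell, the chemokine Cx3cl1 and the receptor Cxcr4. Of these, Ccl11 entered the test through its null pools alone, as described below. So did the dimmer Cxcl9 probe set, which did not pass. Both count in all numbers given for the tested probe sets of the list. No cytokine passed the test in either direction. The test was limma on log2(value + 44) with genotype and set as terms, over the 22519 probe sets whose mean log2 value was at or above the median, with Benjamini-Hochberg adjustment and a threshold of 0.05. Of 35 probe sets of the list that could be tested, for 24 genes, 9 rose and 3 fell. This is 34.3% of those tested, and over all probe sets tested the share that passed was 7.36% (4.09% higher and 3.27% lower). The median log2 ratio of the 35 was 0.23, against -0.03 over all probe sets tested. In the single sets the median was 0.10 in set 1 and 0.17 in set 2. The ratio went the same way in both sets for 29 of the 35 probe sets, 19 higher and 10 lower, which is 82.9%, against 63.2% over all tested.

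**Figure D2:**
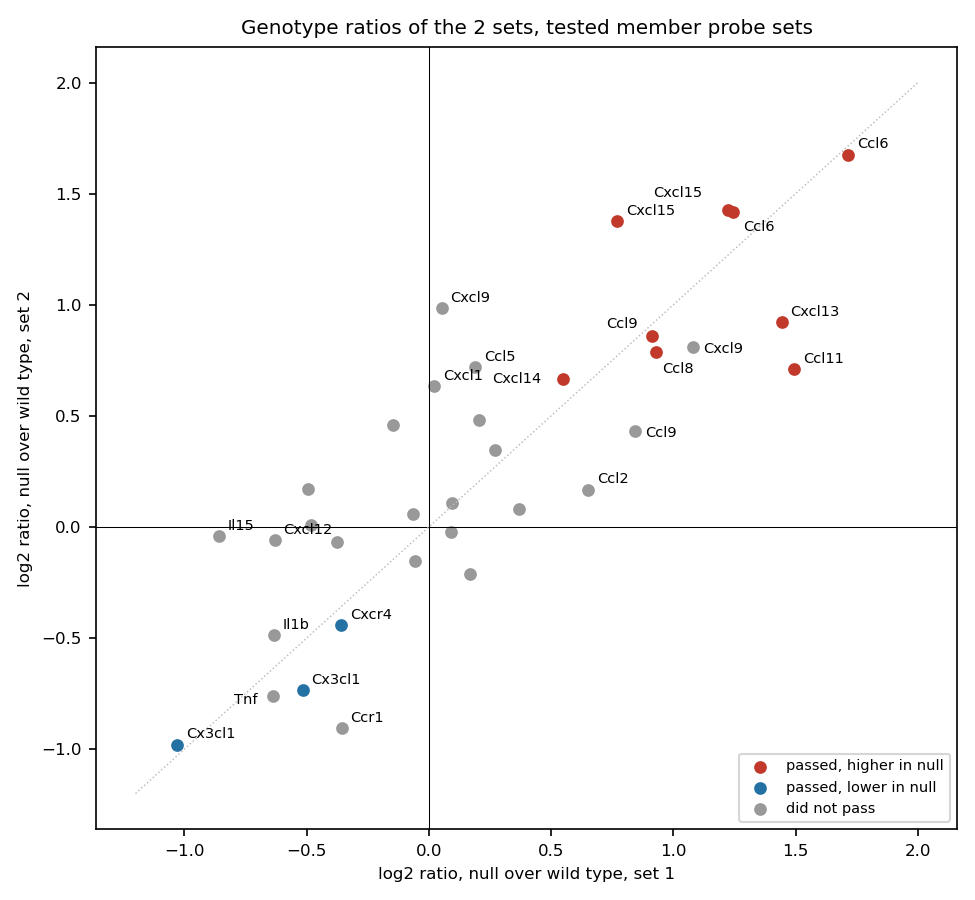
Log2 ratio of null over wild type in set 2 (vertical) against set 1 (horizontal) for the 35 tested probe sets, coloured by the test, with the dotted line of equality. Of the 9 that rose, the lowest ratio in a single set is 0.55 (Cxcl14, set 1), and of the 3 that fell, the highest is -0.36 (Cxcr4, set 1).

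The size of the differences was also counted in each set alone, with no test. In set 1 alone, 11 of the 35 were at least 1.5-fold higher and 5 at least 1.5-fold lower, against 5.32% and 5.59% of all tested. In set 2 alone, 13 were at least 1.5-fold higher and 4 lower, against 6.34% and 7.46% of all tested. At least 2-fold, 6 were higher and 1 lower in set 1 (1.63% and 1.08% of all tested), and 4 were higher and 0 lower in set 2 (1.84% and 1.88%). Both Ccl6 probe sets and the brighter Cxcl15 probe set were at least 2-fold higher in both sets, where 1.11% of all tested differed that much the same way. Both null pools lay above both wild-type pools for 12 of the 35 (15.1% of all tested) and below them for 6 (16.9%). The calls depend on the set term and on the intensity trend of the fit. With genotype alone, or without the trend, limma called 0 of the 35 (11 and 17 at an unadjusted p under 0.05) and 0 of all probe sets (1261 and 3512 at an unadjusted p under 0.05).

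The CC chemokines, which mainly recruit monocytes, macrophages, eosinophils and T cells, held most of the rises. Of 10 CC probe sets tested, for 8 genes, 5 rose, among them both Ccl6 probe sets, and 0 fell. The 5 include Ccl11, which entered the test through its null pools alone and also counts in the CC values below. Over all tested, 4.09% rose and 3.27% fell. Of the 10, 9 were higher in both sets, where 63.2% of all tested went the same way, up or down. The median log2 ratio of the CC probe sets was 0.75. Ccl6, a mouse chemokine made by macrophages and a ligand of the receptor Ccr1, showed the largest ratio of the list. Its signal was 10427 and 12165 in the null pools of sets 1 and 2, against 3144 and 3777 in the wild-type pools. The null pools did not overlap with the wild-type pools, and Ccl6 rose 3.24-fold (log2 1.70 ± 0.10, SE, n = 2 pools per genotype, limma adjusted p = 1.06e-07). A second Ccl6 probe set, whose name marks it as shared with other transcripts, read 4793 and 5015 in the null pools, against 2001 and 1850.1 in the wild-type pools. It rose 2.51-fold, so both probe sets placed every null pool above every wild-type pool.

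Ccl9, a mouse chemokine that attracts myeloid cells through Ccr1 and lies directly beside Ccl6, also rose. Its brighter probe set read 9596 and 11028 in the null pools, against 5081 and 6067 in the wild-type pools. It rose 1.85-fold (log2 0.88 ± 0.10, limma adjusted p = 3.70e-05). The dimmer Ccl9 probe set read 2785 and 1479.9 in the null pools, against 1534 and 1086 in the wild-type pools, which overlap. Its ratio of 0.64 ± 0.21 did not pass (limma adjusted p = 0.086), although it was higher in both sets.

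Ccl8, a monocyte and T cell attractant of the monocyte chemoattractant group, was higher by a similar ratio. It read 27806 and 27177 in the null pools, against 14576 and 15719 in the wild-type pools. It rose 1.81-fold (log2 0.86 ± 0.08, limma adjusted p = 1.21e-05), with no overlap between genotypes. Ccl11, eotaxin, which attracts eosinophils and is made by fibroblasts among other cells, read 1299.6 and 919 in the null pools, against 433 and 545 in the wild-type pools. Both wild-type pools were within the unspecific level of 565, so its rise is given as at least 1.87-fold, the mean of the null pools against that level. They were also under the median signal of every array, 588 to 619. Ccl11 thus entered the test only through the null pools, where it is high. Its fitted log2 ratio was 1.10 ± 0.32 with a limma adjusted p of 0.0499. The call was lost in 5 of 8 alternatives that kept the set and the trend, where the adjusted p ranged from 0.0345 to 0.163.

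The other CC chemokines did not pass. Ccl5, which attracts T cells and monocytes, read 1959.8 and 3383 in the null pools, against 1712 and 2037 in the wild-type pools, with a ratio of 0.45 ± 0.18 (limma adjusted p = 0.172). Ccl2, the main monocyte attractant, read 779 and 1035 in the null pools, against 479.6 and 916 in the wild-type pools, and its groups overlapped. Ccl4, a chemokine that attracts monocytes and T cells, had a ratio of 0.23 ± 0.24, and Ccl28, a mucosal chemokine, one of -0.16 ± 0.29. Ccl7, close kin of Ccl2, was too dim to test and read 549 and 585 in the null pools, against 274 and 400.5 in the wild-type pools. Ccl3, not told from the unspecific level, read 499 and 292 in the null pools, against 282 and 87.8 in the wild-type pools. Ccl17, Ccl20, Ccl22 and Ccl25 were also too dim to test.

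Several of the CC chemokine genes lie side by side. In the reference order of protein-coding genes, Ccl5, Ccl9, Ccl6, Ccl3 and Ccl4 follow each other with no gene between, and Ccl2, Ccl7, Ccl11 and Ccl8 follow with 1 gene between the last pair. In the first cluster the fitted log2 ratios were 0.45 for Ccl5, 0.88 for the brighter Ccl9 probe set, 1.70 for the brighter Ccl6 probe set and 0.23 for Ccl4, while Ccl3 was not tested. In the second they were 0.41 for Ccl2 and 0.86 for Ccl8, while Ccl11 has only the bound above and Ccl7 was not tested. Differences between neighbouring genes were not tested. In the first cluster, the genes that passed, Ccl6 and Ccl9, are direct neighbours.

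**Figure D3:**
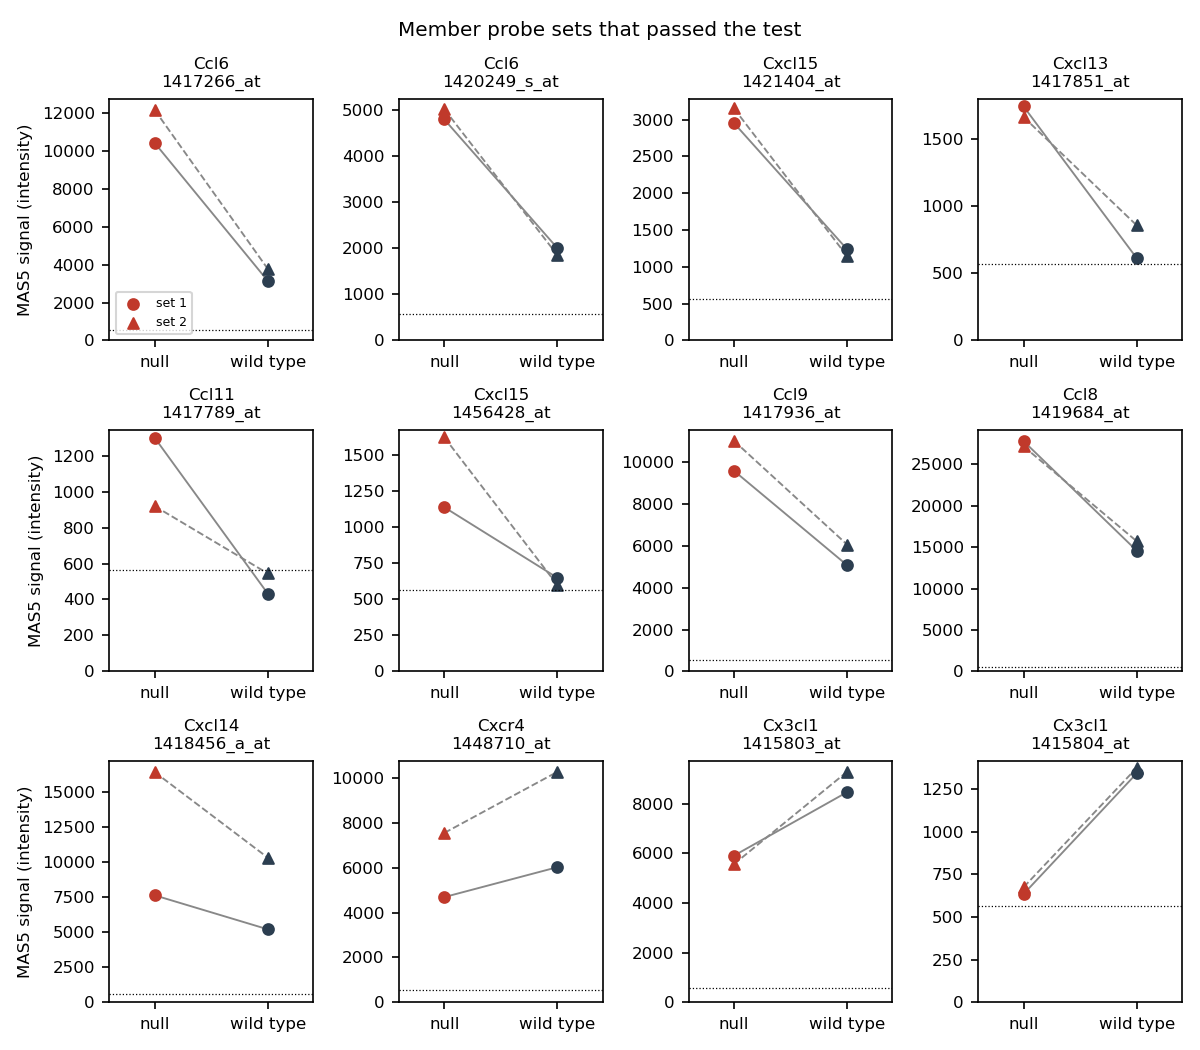
MAS5 signal (linear axis from 0) of the 12 probe sets that passed the test, with null left of wild type in each panel. Circles and solid lines are set 1, triangles and dashed lines set 2, and the dotted line is the unspecific level of 565. Within each set the null pool is above the wild-type pool in 9 panels and below it in the 3 panels of Cxcr4 and Cx3cl1.

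Among the CXC chemokines with the ELR motif, Cxcl15 rose on both of its probe sets and Cxcl1 did not pass on any of 3. Cxcl15, lungkine, is a mouse neutrophil attractant known from lung epithelium and other mucosal epithelia. It read 2952 and 3151 in the null pools, against 1238 and 1145 in the wild-type pools. It rose 2.51-fold (log2 1.33 ± 0.19, limma adjusted p = 3.49e-04). The second probe set read 1136 and 1620.1 in the null pools, against 648 and 597 in the wild-type pools, and rose 2.10-fold (limma adjusted p = 0.0309). The null pools were above the wild-type pools on both probe sets.

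Cxcl1, which binds the neutrophil receptor Cxcr2, gave ratios of -0.24 ± 0.18, 0.16 ± 0.23 and 0.33 ± 0.25 on its 3 probe sets. Cxcl15 and Cxcl1 are direct neighbours in the reference gene order, followed by Cxcl2. Cxcl2, another neutrophil attractant, was never above the unspecific level and read 173 and 189.8 in the null pools, against 507 and 337 in the wild-type pools. Cxcl5 was never above it either. Among markers of neutrophils themselves, S100a8, which other cells can also make, fell by 1.86 on the log2 scale (9956 and 8818 in the null pools, against 35879 and 32530 in the wild-type pools). The name of that S100a8 probe set marks it as shared with other transcripts. The other 4 measured markers of that list, S100a9, Mpo, Cxcr2 and Ngp, were never above 565, and the part of neutrophils in these values was not tested.

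Of the 11 probe sets tested for CXC chemokines without ELR, 2 rose and 0 fell, and their median was 0.10. Over all probe sets tested, 4.09% rose and 3.27% fell. Cxcl13, which draws B cells into lymphoid follicles, read 1738 and 1659.7 in the null pools, against 611 and 855 in the wild-type pools. It rose 2.27-fold (log2 1.18 ± 0.26, limma adjusted p = 0.00973). Its other probe set read 729 and 1168 in the null pools, against 959.6 and 1226 in the wild-type pools, with a ratio of -0.22 ± 0.26. The 2 probe sets of Cxcl13 thus gave ratios of opposite sign, and the rise is that of 1 probe set.

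Cxcl14, a chemokine of epithelium and stroma, differed between genotypes and between sets. It read 7618 and 16385 in the null pools of sets 1 and 2, against 5200.1 and 10297 in the wild-type pools. The genotypes overlap across sets but not within them, and it rose 1.52-fold (log2 0.61 ± 0.09, limma adjusted p = 8.46e-04). Its second probe set had a ratio of 0.31 ± 0.10 that did not pass (limma adjusted p = 0.0947).

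The interferon-induced chemokines Cxcl9 and Cxcl10, which bind Cxcr3 on T and NK cells, did not pass. The dimmer Cxcl9 probe set read 1125 and 837 in the null pools, against 509 and 459 in the wild-type pools, both within the unspecific level. The wild-type readings were also under the median signal of every array, so it entered the test only through the null pools. Against the unspecific level, the null pools were at least 1.67-fold higher. Its fitted ratio was 0.95 ± 0.31 (limma adjusted p = 0.0877). The brighter Cxcl9 probe set had 0.52 ± 0.28, and Cxcl10 had -0.02 ± 0.26. Cxcl12, the stromal ligand of Cxcr4, read 10718 and 9269.8 in the null pools, against 10071 and 9416 in the wild-type pools. That ratio was 0.03 ± 0.09, the second tested probe set had -0.35 ± 0.26, and another, never above the unspecific level, read 189 and 69.6 in the null pools, against 499 and 385 in the wild-type pools. Cxcl16, a membrane-bound chemokine and scavenger receptor, had ratios of 0.10 ± 0.11 and 0.00 ± 0.11.

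Cx3cl1, fractalkine, is a membrane-anchored chemokine of epithelium and endothelium that binds Cx3cr1 on monocytes and NK cells, and it fell on both tested probe sets. The brighter read 5910 and 5569 in the null pools, against 8469 and 9292 in the wild-type pools. It was 1.54-fold lower (log2 -0.62 ± 0.10, limma adjusted p = 0.00144). The dimmer read 635 and 675 in the null pools, against 1342 and 1374 in the wild-type pools, and was 2.01-fold lower (limma adjusted p = 0.0331). Neither overlapped, and the 2 untested probe sets were lower in null in both sets too, though never above the unspecific level. In the reference gene order Cx3cl1 stands directly between Ccl22 and Ccl17, both too dim to test. Its receptor Cx3cr1 read 4742 and 3931 in the null pools, against 4897 and 4423 in the wild-type pools, with a ratio of -0.11 ± 0.12.

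Of the receptors in the list, Cxcr4, the receptor of Cxcl12, fell and Ccr1 did not pass. Cxcr4 read 4689.5 and 7545 in the null pools of sets 1 and 2, against 6022 and 10269 in the wild-type pools. The genotypes overlap across sets, and within each set the null pool was the lower one, so that the gene was 1.32-fold lower (log2 -0.40 ± 0.10, limma adjusted p = 0.0264). Ccr1, the receptor of Ccl6 and Ccl9 in the mouse, read 1077 and 989 in the null pools, against 1390.1 and 1891 in the wild-type pools. The null pools lay below both wild-type pools, yet the ratio of -0.63 ± 0.24 did not pass (limma adjusted p = 0.14). Its second probe set was never above the unspecific level.

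Of 5 cytokines tested 0 passed, and their median log2 ratio was -0.45. Il1b, interleukin-1 beta, read 1354 and 1751 in the null pools, against 2121 and 2475 in the wild-type pools. The groups did not overlap and the ratio was -0.56 ± 0.19 (limma adjusted p = 0.0921). Tnf, tumor necrosis factor, read 474 and 853 in the null pools of sets 1 and 2, against 761 and 1473 in the wild-type pools. Its ratio was -0.70 ± 0.29 (limma adjusted p = 0.175), with the null pool of set 1 within the unspecific level. Il15, a growth factor of NK cells and memory T cells, had -0.45 ± 0.27, with -0.86 in set 1 and -0.04 in set 2. Il33, an alarmin of epithelium and stroma, read 7295 and 8241 in the null pools, against 7588 and 9172 in the wild-type pools, with overlap and a ratio of -0.11 ± 0.10. Il18, an inflammasome-processed cytokine, had 0.34 ± 0.16. Il1a, Il6 and Tslp were too dim to test.

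**Figure D4:**
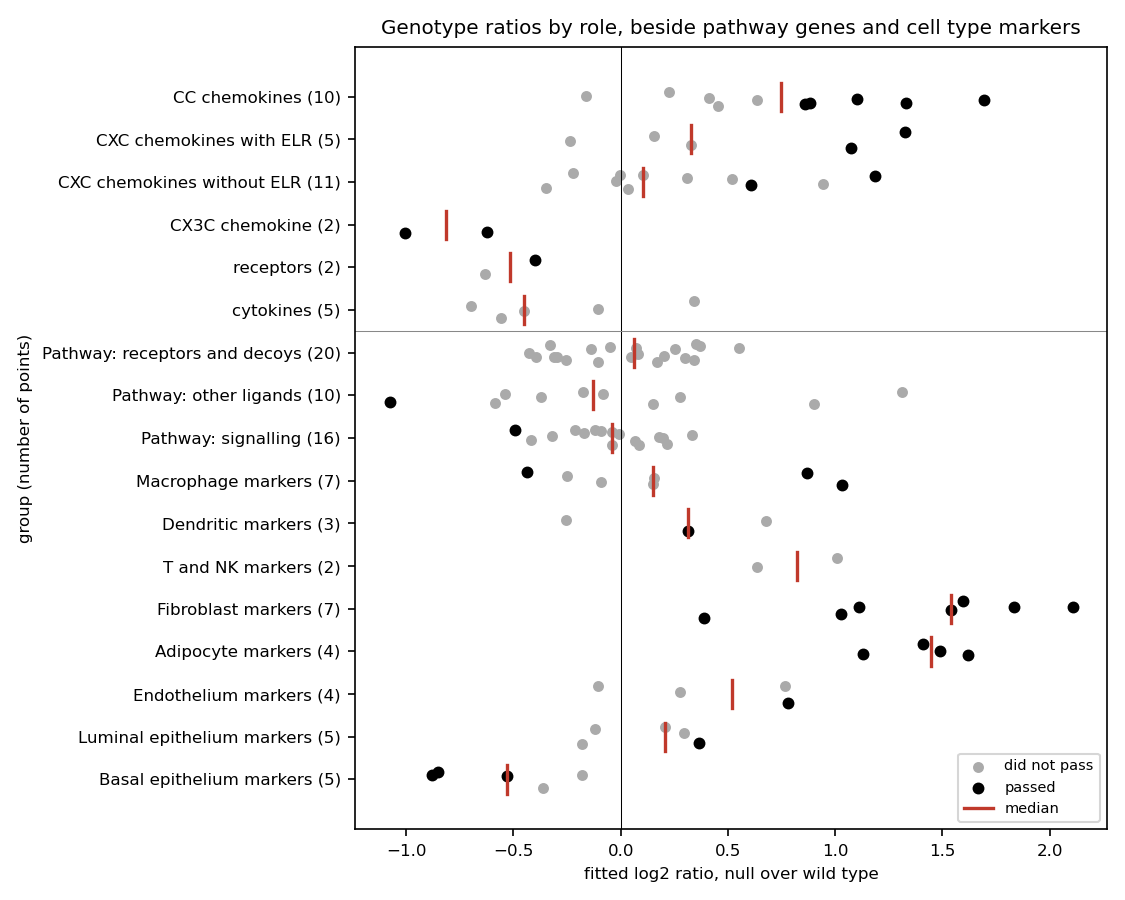
Fitted log2 ratio of null over wild type for the tested probe sets of the list by role (above the line, 1 point per probe set), and for other pathway genes and cell type markers (below the line, 1 point per gene). Black points passed the test, grey points did not, and red bars are medians. The medians are 0.75 for CC chemokines, -0.45 for cytokines, 0.15 for macrophage markers and 1.54 for fibroblast markers.

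Other genes of the same pathways, outside the list, mostly did not pass. Of 46 such genes tested, by the brightest tested probe set of each, 0 rose and 2 fell, with a median log2 ratio of -0.04. Over all genes on that basis, 8.76% passed. Cxcl17, a mucosal chemokine, read 1155 and 1275 in the null pools, against 2410 and 2830 in the wild-type pools, and fell by 1.08 on the log2 scale. Stat3, which carries signals of the interleukin-6 family, fell by 0.49, with ratios between -0.28 and -0.13 on the others tested. The passing Stat3 probe set read 60162 and 15279 in the null pools of sets 1 and 2, against 71056 and 25701 in the wild-type pools. Its ratio was -0.24 in set 1 and -0.75 in set 2, and for set 2 over set 1 it was -1.72. Of 20 receptors and decoys tested 0 passed, among them Ccr2, the receptor of Ccl2, at 0.20 ± 0.13, and the decoys Ackr1 at 0.55 ± 0.27 and Ackr3 at 0.07 ± 0.11. Among the 16 signalling genes, the NF-kappaB inhibitor Nfkbia had -0.04 ± 0.09 and Tnfaip3, another brake on that pathway, had 0.22 ± 0.17. Of other ligands, Osm, oncostatin M, read 568 and 1708 in the null pools of sets 1 and 2, against 435 and 318 in the wild-type pools. Both wild-type pools were within the unspecific level, and Osm did not pass (limma adjusted p = 0.0727).

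Markers of several cell types moved with genotype, and their part in the chemokine values was not tested. Each marker was taken by its brightest tested probe set, and over all genes on that basis 8.76% passed. Of 7 macrophage markers tested, Mrc1 and Cd163 rose, with log2 ratios of 1.03 and 0.87, and Cd14 fell by 0.44. The summed signal of the 8 macrophage markers measured was 117691 and 149536 in the null pools, against 125104 and 154891 in the wild-type pools, and only Itgam was never above the unspecific level. Cd14 alone read 30452 and 38913 in the null pools, against 43003 and 50698 in the wild-type pools, and so weighs on that sum. Of the 7 tested, 4 were higher in both sets, and the median was 0.15. Of 7 fibroblast markers 7 rose, and their summed signal was 323987 and 366543 in the null pools, against 153697 and 156279 in the wild-type pools. Of 4 adipocyte markers tested 4 rose, with sums of 59742 and 53021 in the null pools, against 24257 and 21418 in the wild-type pools. Beside Cxcl13 and Cxcl9, 2 markers of T and NK cells could be tested. Cd8a and Nkg7 had ratios of 1.01 and 0.64 that did not pass, and Cd4 was never above the unspecific level. Cd8a read 499 in the wild-type pool of set 2, within that level. Cd3e and Cd3g were too dim to test. In sets 1 and 2, Cd3e had log2 ratios of 0.95 and -0.81, and Cd3g had -0.48 and -0.29. Beside Cx3cl1, 1 of 5 luminal epithelial markers rose and 0 fell, 3 of 5 basal epithelial markers fell, and 1 of 4 endothelial markers rose. The luminal marker Elf5 had -0.12 on its brightest tested probe set and -1.96 on its other tested one, which is not in these counts. Also higher in the null pools were 3 of 5 skeletal muscle markers (Ckm, Tnni2 and Tnnc2). Ckm read 220 and 478 in the wild-type pools, both within the unspecific level, and another tested Tnni2 probe set had -0.01. The mast cell marker Cma1 rose, at 1.12, while Kit, the other one tested, had -0.21 and did not pass. Cma1 read 1018 and 1704 in the null pools, against 574 and 588 in the wild-type pools. The wild-type readings were close to the unspecific level and under the medians of their arrays, so its entry into the test leaned on the null pools. Of 3 dendritic cell markers tested, H2-Ab1 rose, at 0.32, with 0.01 and 0.16 on its other tested probe sets. Itgax had -0.25 and Cd209a 0.68, and neither passed.

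The sets were also compared with each other, since each holds different animals. For set 2 over set 1, in the same fit, 4 of the 35 were higher and 1 lower, which is 14.3%, against 23.5% of all tested. Cxcl14 had a log2 ratio of 1.04 ± 0.09 (limma adjusted p = 3.48e-06) on 1 probe set and 0.39 ± 0.10 on the other. Cxcr4 was higher in set 2 by 0.72 ± 0.10 and Tnf by 0.85 ± 0.29. The dimmer Ccl9 probe set was lower in set 2, at -0.69 ± 0.21, while the brighter one had 0.23 ± 0.10. The Gapdh 3'/5' ratio was higher in set 2 as well, and its part in these differences was not tested. No probe set of the 35 was at least 1.5-fold higher in one set and 1.5-fold lower in the other between genotypes.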

How the data were processed

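The values are linear probe set intensities that the authors deposited, made with MAS5 per the submitters' processing notes, which sums up the probes of a set and scales each array. Its version and the genome build are not given in the sources used here. The mean that leaves out the top and bottom 2% of values was 2500.01 on each of the 4 arrays, and the deposited intensities were used as they are, without detection calls. Of 45101 probe sets, 64 controls were left out. Values became log2(value + 44), 44 being the 10th percentile, and a ratio on this log2 scale of the deposited values understates changes of dim genes. The 22519 probe sets at or above the median mean log2 value were fitted with limma 3.58.1 in R 4.3.3 (lmFit and eBayes, prior variance trended on intensity) on genotype plus set. The series' design text compares the pools set by set, so the set is the pairing block, and deviations from the genotype means correlated at 0.612 within each set, a single value since both sets mirror each other. There was 1 residual degree of freedom, plus 13.5 prior ones. Pools come from different animals, and an exact permutation of 2 against 2 pools across the sets cannot give a two-sided p under 0.333. A permutation within the sets has fewer arrangements, so its lowest p is higher still. The number of arrays limits the precision.

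The members, the pathway list, the marker lists and the tests were chosen with earlier results of these data known, so no direction that was known is independent support. By rule, values on every array were given for members past the threshold and for both receptors. The rule also covered members at least 2-fold different the same way in both sets and above the unspecific level. The 6 members with the highest signal in wild type were covered as well. Array values of Ccl2, Ccl3, Ccl5, Ccl7, Cxcl2, Cxcl9, Il1b and Tnf are given besides and lie outside this rule. The other members are named so that each is accounted for. Pathway genes were named where called, and Ccr2, Ackr1, Ackr3, Cx3cr1, Nfkbia, Tnfaip3 and Osm were named after their values were seen. The fit was also run on simulated arrays, and the outcome is not reported here. Tried besides were cyclic loess or quantile normalization, other filters, pseudocounts of 10 and 200, no trend, no set term, 1 probe set per gene and each array left out. Symbols came from the platform annotation, and promoters were read from a RefSeq table with Biopython 1.88 for the alignment.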

Additional observations from a re-analysis of the deposited data

How the results depend on the processing

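The calls rest on the set and the intensity trend. Without a replicate block (no set term), and without the trend, limma called 0 probe sets in all, 0 of the list higher, 0 lower and 0 pathway genes, and without the trend also 0 between sets. With 1 array left out and no set term, between 5 and 26 probe sets were called in all (19 without the null pool of set 1, 15 without the wild-type pool of set 2), and 0 of the list or of the pathway genes. Under the other 8 alternatives, one of which, a filter on linear means, was added after seeing the data, each of Ccl6, Ccl8, Ccl9, Cxcl13, Cxcl14, Cxcl15, Cx3cl1 and Cxcr4 kept the call of its brighter or only passing probe set. Ccl11 lost it under quantile and cyclic loess normalization, without a filter and under both other filters, and the dimmer Cxcl15 and Cx3cl1 probe sets lost it without a filter. With 1 probe set per gene, 3 were called between sets and 4 pathway genes, which was also 4 with a pseudocount of 200. The median of the list was 0.10 without a filter, 0.13 with 1 probe set per gene, 0.10 in set 1 alone and, with 1 array left out, 0.0643 without the null pool of set 2 and 0.12 without the wild-type pool of set 1, up to 0.33. In set 1 alone, 5 were at least 1.5-fold lower. Ratios that did not pass changed sign in these cases. Cxcl10 was 0.0028 under quantile and 0.0123 under cyclic loess normalization, and the shared Cxcl16 probe set 0.0125 and 0.0029. Without the null pool of set 1, Ccl28 was 0.28, Cxcl12 -0.0707, the second Cxcl13 probe set 0.10 and Cxcl16 0.0345. Without the wild-type pool of set 1, Ccl2 was -0.0275 and Cxcl16 0.0227. Without the null pool of set 2, Cxcl1 was -0.0249 and Cxcl10 0.0300. Without the wild-type pool of set 2, Cxcl10 was 0.11, Cxcl12 -0.0148 and Il33 0.0310. The cause of these changes was not tested. With 2 pools per genotype and many members within 565, small changes of dim chemokines cannot be seen.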
